A study of Canis lupus familiaris with 18 samples.

Results

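Myelin structural genes were examined in RNASeq counts from canine high grade oligodendroglioma (HGO), a brain tumor whose cells carry oligodendrocyte lineage markers. The 9 genes were chosen by symbol as MBP, MOG, MAG, CNP, MOBP, MAL, CLDN11, UGT8 and OPALIN. Of these, 7 were listed by symbol among the 29993 genes of the count table, and MOG and MOBP were not analysed here. They were MBP (ENSCAFG00000000016), MAG (ENSCAFG00000007041), CNP (ENSCAFG00000015757), MAL (ENSCAFG00000007047), CLDN11 (ENSCAFG00000050376), UGT8 (ENSCAFG00000012173) and OPALIN (ENSCAFG00000008530). All 7 listed genes passed the filter on low counts. The libraries were made from formalin-fixed, paraffin-embedded surgical biopsies of tumors of the prosencephalon (forebrain). One group held 11 French bulldogs and the other, called the comparison group, held 7 dogs, 4 boxers and 3 Boston terriers. The tumors arose spontaneously in pet dogs, no treatment is given in the labels, no normal brain was sequenced, and each library is labelled as 1 dog. Comparison dogs are named here by breed and by their label number from 1 to 7.

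Myelin is the lipid-rich membrane that mature oligodendrocytes wrap around axons. Its structural genes are switched on late, after the oligodendrocyte precursor cell, marked by the growth factor receptor PDGFRA and the proteoglycan CSPG4, leaves the cell cycle and matures. MBP encodes myelin basic protein, which holds the cytoplasmic faces of the sheath together, and CNP encodes an enzyme of the non-compact myelin. UGT8 makes galactosylceramide, the characteristic myelin lipid. MAG is a glycoprotein facing the axon, CLDN11 forms the tight junctions of central myelin, MAL is a small proteolipid involved in membrane sorting, and OPALIN is a transmembrane glycoprotein of mature oligodendrocytes. Counts were summed per gene, so transcripts from the MBP locus that are made outside oligodendrocytes are counted with MBP.

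Between 8212452 and 13169880 reads were counted per library. French bulldogs 2 and 8 share a case number in the labels, and their log2 levels correlated across genes with r = 0.98, above the highest value of 0.94 for any other pair of French bulldogs. They were tested as 2 libraries between breeds and averaged as 1 dog in the correlations, except where they are said to be kept apart. The library labelled French bulldog 6 stood apart. Its 13 listed precursor genes summed to 308 normalized CPM (counts scaled to a common library size), against 3825 to 16930 in the other French bulldogs, and the defining lineage gene OLIG2 was at 0 counts. Its 11 macrophage and microglia genes summed to 6898 CPM, against 58.8 to 349 in the other French bulldogs. The correlations left this library out, and the test of French bulldogs against the comparison group is also given without it. The values of the single-breed contrasts include it. Fewer oligodendrocytes and less RNA per oligodendrocyte cannot be told apart in bulk tissue. Gene lengths were not available, so levels are compared between dogs for 1 gene and not between genes.

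MBP was detected in all 18 libraries. Its normalized CPM in French bulldogs had a lowest value of 15.4, a median of 350.2 and a highest value of 4558. In the comparison group the lowest, median and highest values were 296, 373 and 796. The French bulldogs thus extended above and below every comparison dog, and the groups overlapped. French bulldog 9 was the highest library, French bulldog 1 followed at 1122 CPM, and French bulldogs 6, 8 and 2 were the lowest at 15.4, 87.1 and 95.8 CPM.

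MAG ranged in French bulldogs from 0.781 CPM in French bulldog 2 through a median of 9.58 to 101 CPM in French bulldog 9. The comparison dogs ranged from 5.13 through a median of 6.21 to 17.2 CPM. French bulldogs 2, 8 and 6 lay below the comparison range, and only French bulldogs 1 and 9 lay above it. French bulldog 2 had 7 counts of this gene, so its level carries a large counting error.

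CLDN11 ranged in French bulldogs from 1.15 CPM in French bulldog 6 through a median of 13.9 to 84.8 CPM in French bulldog 9. The comparison dogs ranged from 5.85 through a median of 20.4 to 33.0 CPM. French bulldogs 1, 3 and 10, at 57.7, 56.2 and 40.4 CPM, were also above all comparison dogs.

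UGT8 ranged in French bulldogs from 2.08 CPM in French bulldog 6 through a median of 146 to 293 CPM in French bulldog 1. The comparison dogs were close together, with a lowest value of 129, a median of 148 and a highest value of 208 CPM. It was the member in which French bulldog 9 was not the highest library, at 280.2 CPM. French bulldogs 2 and 8 had 32.0 and 41.7 CPM, and the lowest comparison dog was 3.49-fold above their mean.

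CNP had the smallest spread of the 7 members among French bulldogs, whereas among the comparison dogs UGT8 did. French bulldogs ranged from 114 CPM in French bulldog 6 through a median of 273 to 561 CPM in French bulldog 9, and the comparison dogs from 169.5 through 288 to 385 CPM. French bulldogs 2 and 8, low for the other 6 members, had 235 and 273 CPM, inside the comparison range.

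MAL and OPALIN were counted at low depth. MAL ranged in French bulldogs from 0.104 CPM (1 count, French bulldog 6) through a median of 2.38 to 26.4 CPM in French bulldog 9, and in the comparison group from 0.994 through 3.78 to 7.25 CPM. OPALIN ranged in French bulldogs from 0 through a median of 1.51 to 39.9 CPM in French bulldog 9, and in the comparison group from 0.994 through 1.2 to 4.29 CPM. OPALIN was at 0 counts in French bulldogs 6 and 8, which allows a level of up to 0.312 and 0.305 CPM, taken as 3 counts on the same normalized scale and covering counting error only. French bulldog 9 alone held 70.2% of the summed OPALIN level of the 11 French bulldogs, 52.8% of that of MAL and 52.7% of that of MBP.

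The same libraries therefore recur at the ends of the 7 distributions. French bulldog 9 was among the 3 highest of the 18 libraries for 7 of 7 members. French bulldog 6 was among the 3 lowest for 7 of 7 members, and French bulldogs 2 and 8 for 6 of 7 each. French bulldog 1, among the 3 highest for 4 members, was not uniformly high, since its OPALIN level rested on 6 counts and French bulldog 9 was 89.3-fold above it. Of the comparison dogs, Boxer 4 was among the 3 highest for 4 members.

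**Figure D1:**
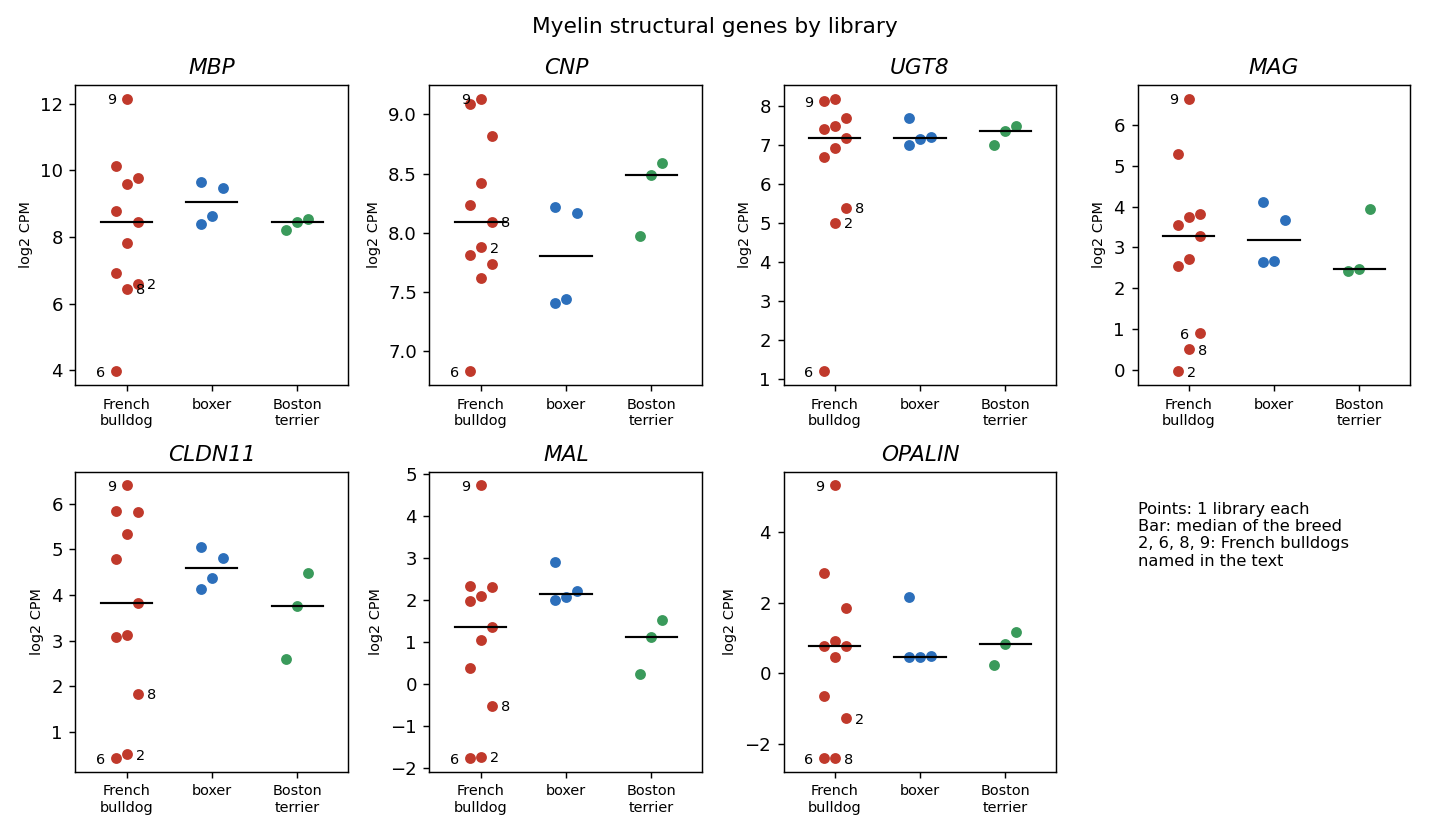
Level of each of the 7 myelin structural genes (y axis, log2 CPM with a prior count of 2) in each library, by breed (x axis). Each point is 1 library, bars are breed medians and the numbers mark French bulldogs 2, 6, 8 and 9. French bulldog 9 sits at or near the top of every panel, French bulldog 6 is lowest in every panel but MAG (tied with French bulldog 8 for OPALIN), and the boxers and Boston terriers lie between these extremes.

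The difference in myelin structural genes between the breeds was tested, French bulldogs against all 7 comparison dogs, with edgeR's quasi-likelihood F test over 16495 genes. None of the 7 members passed an adjusted p of 0.05, and 0 of 7 had an unadjusted p under 0.05. Among all genes tested, 1 passed the adjusted threshold (0.00606%) and 1744 had an unadjusted p under 0.05 (10.6%). DESeq2's Wald test and limma-voom also gave 0 of 7 members at an unadjusted p under 0.05. The median log2 fold change of the members, French bulldog minus comparison, was 0.47, beside 0.04 over all genes.

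The log2 fold change, French bulldog minus comparison, was 0.76 ± 0.78 (SE) for MBP, 0.94 ± 0.77 for MAG and 1.53 ± 1.05 for OPALIN. It was 0.47 ± 0.70 for CLDN11, 0.35 ± 0.78 for MAL, 0.19 ± 0.29 for CNP and -0.14 ± 0.53 for UGT8. The lowest adjusted p of the 7 was 0.599 for OPALIN. The signs also depended on the tool: limma-voom, which works on log values, gave a median of -0.54, with negative values for MBP, MAL, OPALIN, CLDN11 and UGT8. Against the comparison dogs of library numbers 18 to 21 alone the median was 0.33, and against those of library numbers 1 to 3 alone it was 0.85.

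One library set the direction of 3 of these values. Without French bulldog 9 the log2 fold change was -0.19 for MBP, -0.60 for MAL and -0.08 for OPALIN, and the median over the members was -0.08. Without French bulldog 6 the value for UGT8 became 0.03, the median over the members was 0.64, and 0 of 7 had an unadjusted p under 0.05, beside 10.8% of the genes tested. With both left out, the values ranged from -0.46 for MAL to 0.28 for CLDN11.

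**Figure D2:**
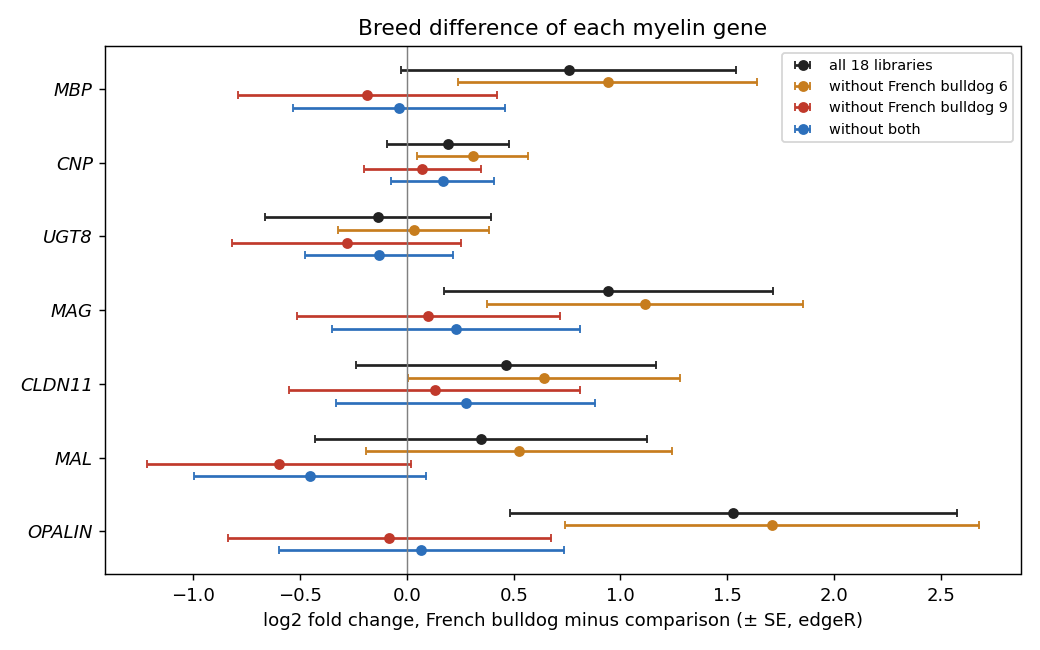
Log2 fold change of each myelin structural gene, French bulldog minus comparison (x axis, ± SE from edgeR), with all 18 libraries, without French bulldog 6, without French bulldog 9 and without both. The values for MBP, MAL and OPALIN change sign when French bulldog 9 is left out, from 0.76, 0.35 and 1.53 to -0.19, -0.60 and -0.08.

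The comparison group holds 2 breeds, so the breeds were also compared singly in 1 fit. No member had an unadjusted p under 0.05 in French bulldogs against boxers, where 8.27% of genes did. None did in French bulldogs against Boston terriers (3.83% of genes) or in boxers against Boston terriers (1.91% of genes). For MBP the mean level was 786 ± 1303 CPM in French bulldogs (SD, n = 11), 560 ± 229 in boxers (n = 4) and 339 ± 38.9 in Boston terriers (n = 3). For MAL the means were 4.54 ± 7.46, 4.86 ± 1.61 and 1.88 ± 0.845 CPM in the same order. For MBP the breeds overlapped or lay within the spread of the French bulldogs. For MAL every boxer, at 3.78 CPM or more, was above every Boston terrier, at 2.68 CPM or less, while the French bulldogs spanned both. Boxers and Boston terriers did not overlap for 1 of 7 members and, in either direction, for 7.33% of all genes. edgeR's adjusted p for boxers against Boston terriers was 1.00 for each member. The lowest adjusted p over the 7 members and the 3 contrasts was 0.733, for CNP in French bulldogs against boxers.

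The French bulldogs spread more widely than the comparison dogs in the values above. With French bulldog 6 left out and French bulldogs 2 and 8 averaged, the SD of log2 CPM was 1.75 in 9 French bulldogs and 0.56 in 7 comparison dogs for MBP, 2.05 and 0.66 for OPALIN and 0.91 and 0.26 for UGT8. The mean distance from the group median was larger in French bulldogs for all 7 members, as it was for 70.4% of all genes. In an exact permutation test over 11440 splits of the dogs (two-sided, chosen after the levels were seen), MBP had an unadjusted p of 0.0372 and an adjusted p of 0.986 over all genes. The other 6 members had unadjusted p-values from 0.0737 to 0.415. A larger spread in French bulldogs had an unadjusted p under 0.05 for 1 of 7 members and for 2.34% of all genes. No member had an unadjusted p under 0.05 when comparison dog 1, 2, 3 or 7 was left out.

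How the members moved with each other was measured over 16 dogs, with French bulldog 6 left out and French bulldogs 2 and 8 averaged. All 21 pairs of members had a positive Pearson r of log2 CPM, with a median of 0.68, beside a median of -0.01 over all 113470 pairs of a member with any gene. A permutation p under 0.05 with positive r was found for 17 of the 21 pairs and for 8.5% of all pairs. MBP and MAG had the highest r, 0.91 (permutation p = 1e-05, the smallest that 100000 permutations can give), with Spearman's rho of 0.80 (permutation p = 0.00044), and were the only pair under 0.05 after adjustment over all 113470 pairs (adjusted p = 0.0436). Without the 2 dogs farthest from the median of MAG, French bulldogs 9 and 2 (the averaged case), their r was 0.77. The 4 pairs that did not reach a permutation p of 0.05 were all pairs of CNP, with r of 0.21 with MAL, 0.33 with UGT8, 0.36 with CLDN11 and 0.47 with OPALIN. CNP had r of 0.64 with MBP and 0.56 with MAG.

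The agreement among members was weaker when dogs at the ends of their levels were left out. These dogs were picked for those levels. A narrower range lowers r by itself, so the fall cannot show whether the agreement rests on them. With French bulldog 9 and the case of French bulldogs 2 and 8 left out, the median r over the 21 pairs was 0.24, and 5 pairs had a positive r with a permutation p under 0.05, beside 4.25% of all pairs of a member with any gene in the same dogs. Without French bulldog 9 alone there were 11, beside 7.86% of all pairs. MBP and OPALIN, with r = 0.66 over 16 dogs, had r = -0.05 over the remaining 14. Within the 9 French bulldogs the median r of the 21 pairs was 0.74 and within the 7 comparison dogs it was 0.38, a difference that was not tested. MBP with MAG kept an r of 0.94 within French bulldogs and 0.67 within the comparison dogs.

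The members were then set against the 13 listed precursor genes, whose restriction to precursor cells was not tested in these tumors. Across the 91 pairs, 79 had a negative r, with a median of -0.36. A permutation p under 0.05 with negative r was found for 31 of 91 pairs, and for 8.27% of all pairs of a member with any gene. No precursor gene had a permutation p under 0.05 with positive r. After adjustment over all 113470 pairs, 1 of the 91 was under 0.05, MAG with PTPRZ1 (adjusted p = 0.0458).

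PTPRZ1, a receptor tyrosine phosphatase of precursor cells, was negative with 7 of 7 members. Its level was 1196 CPM in French bulldog 9 and 1498 in French bulldog 1, the libraries with the highest MAG, and 6809 and 6678 CPM in French bulldogs 2 and 8, with the lowest MAG. Its r with MAG was -0.85 (permutation p = 3e-05), with Spearman's rho of -0.69 (permutation p = 0.00406). The r was -0.67 without French bulldogs 9 and 2, and -0.53 within the 7 comparison dogs. With MBP its r was -0.75 (permutation p = 0.00083) and its rho -0.56 (permutation p = 0.025), and r fell to -0.46 without the same dogs and -0.07 within the comparison group.

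PDGFRA, the receptor through which platelet-derived growth factor drives precursor proliferation, was also negative with 7 of 7 members. It stood at 163 CPM in French bulldog 9, 206 in French bulldog 11 and 270.1 in French bulldog 1, and at 4963 and 4975 CPM in French bulldogs 2 and 8. MBP in these 5 libraries was 4558, 870 and 1122 CPM in the first set and 95.8 and 87.1 CPM in the second. PDGFRA and MBP had r = -0.80 (permutation p = 0.00011, adjusted p over all pairs = 0.0529) and rho = -0.81 (permutation p = 0.00021). Without French bulldogs 9 and 11, the farthest in PDGFRA, r was -0.71, and without French bulldog 9 and the case of 2 and 8 it was -0.62. Within the comparison group r was -0.22. With MAG, PDGFRA had r = -0.74 (permutation p = 0.00081) and rho = -0.64 (permutation p = 0.00916).

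**Figure D3:**
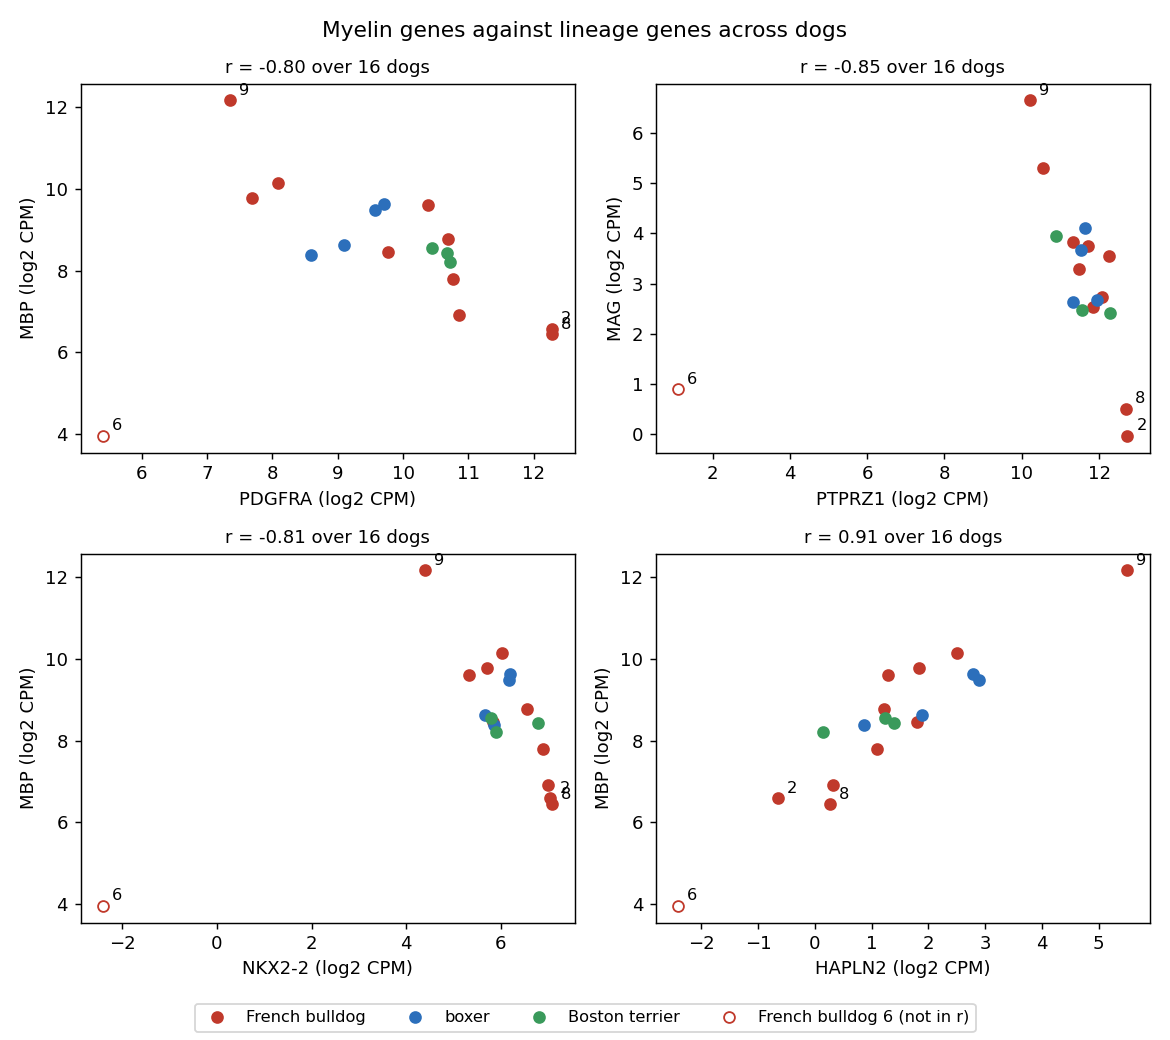
Each point is 1 library, with log2 CPM of a myelin gene on the y axis and of a precursor gene (PDGFRA, PTPRZ1), the lineage factor NKX2-2 or the mature oligodendrocyte gene HAPLN2 on the x axis. The open point, French bulldog 6, is low on both axes and was not used for r, which is given over 16 dogs (-0.80, -0.85, -0.81 and 0.91). French bulldog 9 and French bulldogs 2 and 8 lie toward opposite ends.

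The other precursor genes were negative to different degrees. The transcription factors SOX6, which holds precursors in the immature state, and OLIG2 were negative with 7 of 7 members, with median r of -0.57 and -0.46. SOX6 had r = -0.73 with OPALIN (permutation p = 0.00317, rho = -0.46 with permutation p = 0.0751) and r = -0.72 with MAL (permutation p = 0.0026, rho = -0.56 with permutation p = 0.0252). OLIG1 was negative with 6 members, with a median r of -0.19 and no pair under 0.05. The transmembrane chondroitin sulfate proteoglycan CSPG5 had a median r of -0.47 and the cadherin PCDH15 of -0.48. CSPG5 was more negative by rank than by r, with rho of -0.81 for MAG (permutation p = 0.00026) and -0.80 for MBP (permutation p = 0.00032) against r of -0.67 (permutation p = 0.0099) and -0.63 (permutation p = 0.0161). Within the 7 comparison dogs alone, its r was -0.80 with MAG and -0.90 with MBP. CSPG4, MEGF11 and VCAN had median r of -0.29, -0.18 and -0.18.

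BCAN and TNR did not follow. The proteoglycan BCAN (brevican) had a positive r with 6 of 7 members and a median of 0.23, and the matrix glycoprotein TNR (tenascin-R) had a median of 0.04. Neither had a pair under 0.05. In French bulldogs 2 and 8, BCAN was at 46.3 and 48.7 CPM and TNR at 273 and 282 CPM, while PDGFRA was at its highest.

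The precursor relation was also weaker without the dogs at the ends of the members' levels, where the narrower range brings r nearer to none by itself. Its median r was -0.22 without French bulldog 9, -0.10 without French bulldog 9 and the case of 2 and 8, -0.46 within the 9 French bulldogs and -0.06 within the 7 comparison dogs. Without French bulldog 9, 11 of 91 pairs in place of 31 had a negative r with a permutation p under 0.05, beside 6.58% of all pairs of a member with any gene in the same dogs. Without it and the case of 2 and 8 there were 6, beside 4.02% of all pairs. Leaving out the 2 dogs farthest in each precursor gene changed the sign of 28 of the 91 r values. The sign of r turned with French bulldog 6, while that of the rank correlation did not. Over all 18 libraries, with French bulldog 6 added and French bulldogs 2 and 8 kept apart, 84 of the 91 pairs had a positive r and the median was 0.37, with a median rho of -0.13 beside -0.26 over the 16 dogs, whereas with French bulldogs 2 and 8 kept apart and French bulldog 6 left out the median r was -0.40. Over the 18 libraries r between PTPRZ1 and MBP was 0.45, and r of PDGFRA was -0.12 with MBP and -0.38 with MAG. In that set 15 of the 91 pairs had a positive r and 0 a negative r with a permutation p under 0.05, beside 16.9% and 12.1% of all pairs. In French bulldog 6 PTPRZ1, PDGFRA and MBP were at their lowest level, while MAG was lower still in French bulldogs 2 and 8. The 2 series of library numbers in the comparison group hold 4 and 3 dogs, too few for an r within each.

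Between breeds, none of the 13 precursor genes passed the adjusted threshold in edgeR's test, 0 had an unadjusted p under 0.05, and their median log2 fold change, French bulldog minus comparison, was -0.31. Without French bulldog 6, MEGF11, OLIG2 and TNR had log2 fold changes of -0.73, -0.38 and -0.81 with unadjusted p under 0.05 and edgeR adjusted p of 0.365, 0.442 and 0.453, and the median was -0.15. These are 3 of 13 genes, beside 10.8% of all genes tested without that library.

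Genes expressed between the precursor and the myelinating stage had r of both signs with the members. NKX2-2, a transcription factor that is expressed in precursors and during early differentiation, was negative with 7 of 7 members, and with MBP its r was -0.81 (permutation p = 0.00041, adjusted p over all pairs = 0.0699) and its rho -0.62 (permutation p = 0.0127). That r was -0.56 without French bulldogs 9 and 2 and 0.19 within the comparison group. SOX10, expressed throughout the oligodendrocyte lineage, was negative with 7 of 7 members, with a median r of -0.58. BCAS1 and ENPP6, both known from newly formed oligodendrocytes, were positive with 7 of 7 members, with median r of 0.33 and 0.43. Over the 10 genes of this stage that were tested, the median r was -0.09, with 9 negative and 4 positive pairs of 70 at a permutation p under 0.05. Over all pairs of a member with any gene these shares were 8.27% and 8.5%, so the counts for the stage as a whole lie near the background. Over all 18 libraries the median r of this list was 0.37 and the median rho 0.07. The median r was 0.11 without French bulldog 9, with 2 negative and 5 positive pairs at a permutation p under 0.05. The shares over all pairs in those dogs were 6.58% and 7.86%.

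**Figure D4:**
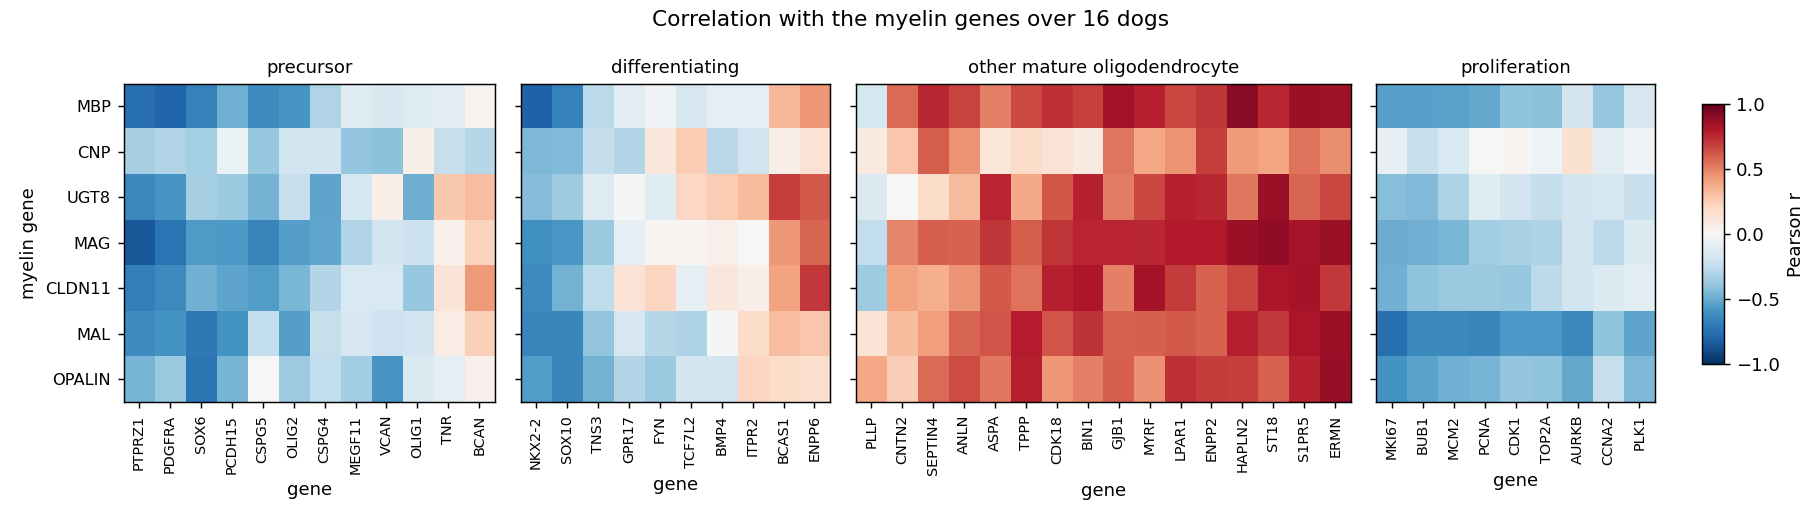
Pearson r over 16 dogs between each myelin structural gene (rows) and the precursor, differentiating, other mature oligodendrocyte and proliferation genes (columns, sorted within each panel by mean r). Blue is negative and red is positive. Most precursor columns are blue apart from TNR and BCAN, and the other mature oligodendrocyte columns are mostly red apart from PLLP.

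Other genes of the mature oligodendrocyte moved with the members. Of 119 pairs with 17 such genes, 114 had a positive r, with a median of 0.63, and 84 had a permutation p under 0.05. All 84 were positive, beside 8.5% of all pairs of a member with any gene. After adjustment over all 113470 pairs, 7 of these were under 0.05. HAPLN2, a link protein of the node of Ranvier, had r = 0.91 with MBP (permutation p = 2e-05, adjusted p = 0.0458) and rho = 0.85 (permutation p = 0.00013). Its r with MBP was 0.83 without French bulldog 9 and Boxer 4, the farthest in HAPLN2, and 0.93 within the 7 comparison dogs. It also passed with MAG (r = 0.87). HAPLN2 was counted at low depth, with 0 counts in French bulldog 6 and 588 in French bulldog 9. S1PR5 with MBP (r = 0.87) and ST18 with MAG (r = 0.89) passed as well. PLLP (plasmolipin) was the exception, with negative r for 4 of 7 members and no pair under 0.05. Without French bulldog 9 and the case of 2 and 8, the median r of the 119 pairs was 0.28. In those dogs 22 positive and 3 negative pairs had a permutation p under 0.05, beside 4.25% and 4.02% of all pairs.

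The lipid enzymes of myelin differed among themselves. Their 84 pairs had a median r of 0.15, and 12 of them, all positive, had a permutation p under 0.05, beside 8.5% of all pairs. The 12 were 6 pairs of FA2H, 4 of ELOVL1 and 2 of SCD, whose median r were 0.60, 0.58 and 0.44. The median r of the 84 pairs was 0.02 without French bulldog 9. In those dogs 2 positive and 2 negative pairs had a permutation p under 0.05, beside 7.86% and 6.58% of all pairs. FA2H, which hydroxylates the fatty acids of myelin lipids and acts next to UGT8, had r = 0.60 with UGT8 (permutation p = 0.0227) and rho = 0.54 (permutation p = 0.0324). GAL3ST1, which sulfates the product of UGT8, had r = 0.03 with UGT8 (permutation p = 0.916) and rho = -0.06 (permutation p = 0.813), and was negative with 6 of 7 members.

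Genes of other cells in the tissue moved with the members as well. GFAP, the astrocyte filament gene, had r = 0.84 with MAG, the 1 astrocyte pair under 0.05 after adjustment over all pairs (adjusted p = 0.0458), and rho = 0.86 (permutation p = 8e-05). It was at 2584 CPM in French bulldog 9, 132 and 171.5 CPM in French bulldogs 2 and 8, and 236 to 1305 CPM in the comparison dogs. Over 56 astrocyte pairs the median r was 0.55, and 29, all positive, had a permutation p under 0.05. Over 77 neuron pairs the median was 0.30, with 24 positive pairs under 0.05. The positive share over all pairs of a member with any gene was 8.5%. The 11 listed neuron genes summed to 2162 CPM in French bulldog 7 and 2156 CPM in French bulldog 9, the highest libraries. The other French bulldogs ranged down to 105 CPM in French bulldog 11 and 10.7 in French bulldog 6, and the comparison dogs from 155 to 1753 CPM. No neuron gene was at 0 counts apart from 2 in French bulldog 6, and the part of adjacent brain tissue in the levels of the myelin genes was not tested. Without French bulldog 9 and the case of 2 and 8, the neuron median was -0.09 and the astrocyte median was 0.18. Positive pairs with a permutation p under 0.05 then numbered 14 for neuron and 11 for astrocyte genes, beside 4.25% of all pairs.

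Neuron genes and the members did not move together in every dog. French bulldog 1 had 1122 CPM of MBP with 12.6 CPM of the synaptic gene SNAP25, and French bulldog 11 had 870 CPM of MBP with 7.63 CPM of SNAP25. French bulldogs 9 and 7 had close levels of SNAP25, 414 and 399 CPM, with 4558 and 350.2 CPM of MBP. Among the members, MAL had r = 0.76 for STMN2 (permutation p = 0.00071) and rho = 0.80 (permutation p = 0.00048), and r = 0.90 within the comparison dogs.

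Cell cycle genes were mostly negative with the members. Of 63 pairs with 9 proliferation genes, 61 had a negative r, with a median of -0.38, and 16 had a permutation p under 0.05. All 16 were negative, beside 8.27% of all pairs of a member with any gene. None was under 0.05 after adjustment over all pairs. The count of negative pairs at a permutation p under 0.05 was 6 without French bulldog 9, beside 6.58% of all pairs. It was 44 over all 18 libraries, beside 12.1%. MKI67, the gene of the Ki-67 antigen, was at 22.3 CPM in French bulldog 9 and at 649 and 712 CPM in French bulldogs 2 and 8. Its r was -0.75 with MAL (permutation p = 0.00101, rho = -0.54 with permutation p = 0.0328) and -0.54 with MBP (permutation p = 0.0305, rho = -0.36 with permutation p = 0.166). Without French bulldogs 2 and 9 these were -0.43 and -0.003. Over the list, the median was 0.04 without French bulldog 9 and the case of 2 and 8, and 0.12 within the comparison dogs.

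Macrophage and microglia genes had a median r of 0.36 with the members and endothelial genes 0.31, with 17 of 77 and 9 of 42 positive pairs at a permutation p under 0.05 and 0 after adjustment over all pairs. The positive share over all pairs of a member with any gene was 8.5%. These counts were 21 and 21 without French bulldog 9, beside 7.86% of all pairs. They were 12 and 10 without it and the case of 2 and 8, beside 4.25%. Over all 18 libraries the macrophage and microglia median r was -0.27, with 14 of 77 pairs positive, and the median rho was 0.20, and the endothelial median was 0.42. In that set 4 positive and 3 negative macrophage and microglia pairs and 18 positive endothelial pairs had a permutation p under 0.05. The shares over all pairs were 16.9% positive and 12.1% negative. The Schwann cell list, whose PMP22 is best known from peripheral myelin, had a median of 0.23. PMP22 was positive with 7 of 7 members, with a median r of 0.61, and PRX and EGR2 were negative with 6 of 7 each.

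**Figure D5:**
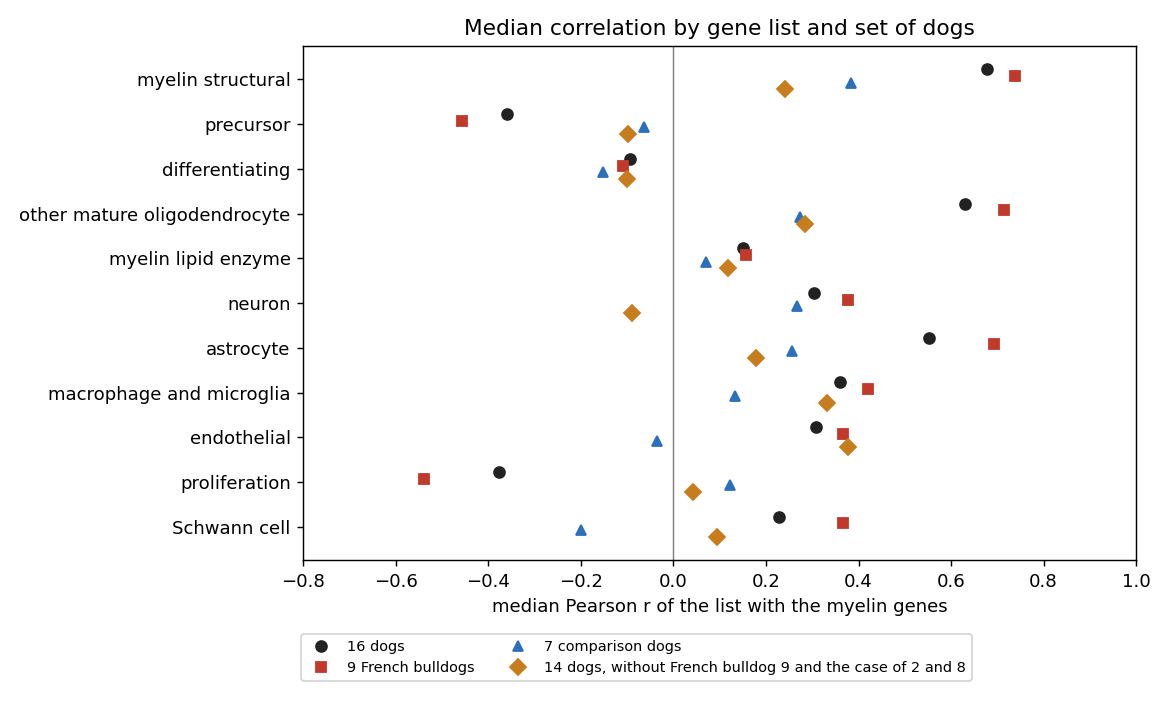
Median Pearson r of each gene list with the 7 myelin structural genes (x axis), over 16 dogs, the 9 French bulldogs, the 7 comparison dogs, and the 14 dogs left without French bulldog 9 and the case of French bulldogs 2 and 8. The precursor median moves from -0.36 over 16 dogs to -0.10 over 14, the proliferation median from -0.38 to 0.04, and the median of other mature oligodendrocyte genes from 0.63 to 0.28.

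Among 16204 other genes, likeness was measured as the mean r with the 7 members over the 16 dogs. SH3BGRL3 was highest, with a mean r of 0.77, followed by a gene without symbol, ENSCAFG00000005106, also at 0.77. Also among the 10 highest were CYP2J2 with 0.76, ERMN and S1PR5 with 0.75 each and FGFR2 with 0.74. PDGFRA ranked at place 15974 and PTPRZ1 at place 16118, near the opposite end. For single members, the named genes among the 2 most alike were KLK5 for MBP (r = 0.92), SH3BGRL3 for MAG (0.91), PRPS2 for CNP (0.77), ABI3BP and MAOB for MAL (0.95 and 0.94), CYP2J2 for CLDN11 (0.90), SPATA24 for UGT8 (0.92), and CCP110 and GPR37 for OPALIN (0.90 and 0.89). These values rank genes over the same 16 dogs and are descriptions without a test.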

How the data were processed

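RNASeq libraries of 18 labelled dogs were analysed. The authors extracted RNA from paraffin scrolls, prepared libraries with a stranded total RNA kit that removes ribosomal RNA, and sequenced paired-end reads. The submitters' processing notes name Trimmomatic 0.33, FastQC, HISAT2 2.1.0, featureCounts and DESeq2. The authors deposited raw counts per gene, without normalization, for 29993 genes, 16324 of them with a symbol. How the counting treated strand and reads with several alignments is not given in the sources used here, so reads of overlapping genes cannot be assigned with certainty. A floor of 3 counts corresponds to 0.223 to 0.351 normalized CPM, which covers counting error only.

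Groups and label numbers were taken from the sample labels. The members and gene lists were chosen with earlier results of these data known. Counts were tested with edgeR 4.0.16 (R 4.3.3; TMM, filterByExpr by group, robust quasi-likelihood F test, two-sided), with Benjamini-Hochberg adjustment over all genes tested, 16495 in the comparison of the 2 groups. Standard errors are the size of the log2 fold change over the square root of F. The labels name a separate dog for each library, apart from the shared case number of French bulldogs 2 and 8. Alternatives were DESeq2 1.42.0, limma-voom (limma 3.58.1), other scalings and filters, and libraries left out. Normalized CPM are counts scaled by the TMM-adjusted library size.

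Correlations used log2 CPM with a prior count of 2 and two-sided permutation p-values from 100000 permutations, fewer for the alternatives. They were adjusted over all 113470 pairs of a member with any gene. The adjustment within each list that the design had set is not used in the text, because the lists were chosen with results known. The scripts were tested on simulated data. Genes named are the listed members and precursor genes, for each other list at most the 4 with the highest mean count and those that a result turns on, and the most alike genes. SNAP25, STMN2, PMP22, PRX and EGR2 were named after their values were seen. A few list genes are not reported here by name, although the counts and medians of their lists include them. Promoter sequences were not used here. Correlations and plots were computed in Python 3.11.15 with numpy 2.4.6, pandas 2.3.3 and matplotlib 3.10.9.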

Additional observations from a re-analysis of the deposited data

Results flagged for a closer look

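Within the 7 comparison dogs, 1 member had a library far from the others. OPALIN was at 4.29 CPM in Boxer 4, and the gap to the next dog was 0.674 of the whole range, above Dixon's 95% critical value of 0.568 for 7 samples. Both ends of 7 members were examined, and chance flags about 1 group in 20. The French bulldog group is larger than 10 and was not examined in this way.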

How the results depend on the processing

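No member was called in the comparison of French bulldogs with the comparison group, or had an unadjusted p under 0.05, under any of the 34 alternatives. None was called between single breeds in the 8 alternatives, which left out French bulldog 6 or 1 comparison dog. The single-breed contrasts were not repeated without French bulldog 9. The signs of the log2 fold changes did not hold. Under limma-voom they were -0.54 for MBP, -0.66 for MAL, -0.55 for OPALIN and -0.32 for CLDN11, and DESeq2 gave -0.10 for OPALIN. UGT8 was 0.12 with French bulldogs 2 and 8 summed and French bulldog 6 left out. With French bulldogs 6 and 9 left out (chosen after seeing the data), MBP was -0.038 and MAL -0.46. Leaving out 1 dog at a time, the values ranged from -0.19 to 0.95 for MBP, -0.60 to 0.67 for MAL, -0.083 to 1.97 for OPALIN and -0.29 to 0.031 for UGT8.

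The label numbers 1 to 7 occur in both groups. The deviations of same-numbered dogs from their group means had correlations from -0.50 to 0.21, which were not tested. The labels name no pairing of these dogs. With the number as a replicate block over these 14 libraries, 0 of 7 members were called, the median was -0.83, and the values were -1.09 for MBP, -0.46 for MAG, -1.12 for MAL, -0.91 for OPALIN, -0.22 for CNP and -0.73 for CLDN11. The same libraries without the block (chosen after seeing the data) gave -0.27 for MBP, -0.61 for MAL, -0.51 for OPALIN and -0.15 for CNP.

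The counts of pairs at a permutation p under 0.05 were 31 for precursor genes, 17 among the members and 217 for the other lists. Over all 18 libraries, with French bulldog 6 included and French bulldogs 2 and 8 kept apart, they were 15 for precursor genes and 332 for the other lists, against 36 and 268 with French bulldogs 2 and 8 kept apart and French bulldog 6 left out. Over the same 18 libraries the median r turned from -0.36 to 0.37 for precursor genes, from -0.09 to 0.37 for differentiating genes and from 0.36 to -0.27 for macrophage and microglia genes, and the median r of the other lists kept its sign. By rank the medians over the 18 libraries were -0.13, 0.07 and 0.20, beside -0.26, -0.10 and 0.31 over the 16 dogs, so only that of the differentiating genes changed sign among these 3. The r of MBP with PDGFRA was -0.12 and that of MAG with PDGFRA -0.38, and r became 0.45 for MBP with PTPRZ1, 0.11 for MAG with PTPRZ1, 0.32 for CLDN11 with PTPRZ1, 0.32 for MAL with SOX6 and 0.25 for OPALIN with SOX6. Without French bulldog 9 and the case of 2 and 8 (chosen after seeing the data) they were 6, 5 and 91. Leaving out 1 dog at a time gave 12 to 33 precursor pairs, 11 to 18 member pairs and 161 to 231 other pairs, the lowest precursor and member counts without French bulldog 9. Library size scaling, DESeq2 size factors, a prior count of 0.5 and deviations from group means kept all 3 counts within 1.5 times. Members with a larger spread in French bulldogs at an unadjusted p under 0.05 numbered 1, and 2 over all 18 libraries, 2 with French bulldogs 2 and 8 kept apart, 3 with library size scaling and 0 to 3 with 1 dog left out. The 15 precursor pairs over the 18 libraries were all positive, beside 16.9% of all pairs. The cause of these changes was not tested. MAL and OPALIN rest on few counts. The planned search of promoters for motifs was not run.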
